A study of Homo sapiens with 6 samples.

Results

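The MOB genes encode small adaptor proteins that bind and activate kinases of the Hippo and NDR families. All 6 genes of the family that were followed here, MOB1A, MOB1B, MOB2, MOB3A, MOB3B and MOB3C, were measured, out of 14884 named genes in all. They were selected by name, as a family, with the difference between the groups already known, and each gene was to be read from its brightest probe set. Each of the 6 had 1 named probe set, so that choice did not arise. The values of the members in this contrast are therefore a description and were given no p.

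The samples were HK2 cells, an established human line of proximal tubule epithelium, the kidney segment that takes back most of the filtered solute. Cells of the control group received a pLKO.1 lentivirus with an shRNA against GFP (shGFP), a protein human cells do not make, and cells of the other group the same vector with an shRNA against PGC-1alpha (shPGC-1alpha). PGC-1alpha is a transcriptional coactivator best known for driving mitochondrial biogenesis. Both groups went through puromycin selection, and RNA was collected on day 5 from transduction, with the drug withdrawn for 24 hours. Each group had 3 arrays, numbered as biological replicates. The labels describe 1 shRNA per target and no second hairpin or rescue, the cells are selected pools in 1 line, and nothing says that the cultures were transduced separately, so the spread between arrays may be partly technical.

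MOB1 proteins work in the Hippo pathway, in which the kinases MST1 and MST2 with the scaffold SAV1 phosphorylate LATS kinases and their MOB1 cofactor. Active LATS phosphorylates YAP and TAZ, which keeps these coactivators away from the TEAD transcription factors in the nucleus. MOB1 also activates the NDR kinases, MOB2 binds NDR kinases in competition with MOB1, and the MOB3 proteins are not known as activators of LATS or NDR. In the kidney the pathway takes part in organ growth and in the response of tubules to injury.

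The values were log2 RMA values with array medians of 5.00 to 5.04, and the number of arrays limits their precision. PPARGC1A, the target of the shRNA, had 0 named probe sets, so the labels were not checked against it. Of 6 measured proximal tubule markers, CUBN and LRP2, the endocytic receptors of the brush border, had means under 4.43, a guide to background set at the value below which 20% of the named genes fell. MME, a brush border peptidase, and HAVCR1 were called lower, and the summed linear value of the list was 4239 to 4464 in shGFP arrays and 3379 to 3430 in shPGC-1alpha arrays. The injury marker HAVCR1 was at 11.97 and 11.61 in the shGFP and shPGC-1alpha groups and the kidney transcription factor PAX8 at 11.44 and 11.82. Of the epithelial markers, 1 of 7, PAX8, was called higher. The 3 called lower were KRT19, EPCAM and KRT18, with log2 differences of -1.42, -0.73 and -0.31. KRT18 was not called with all probe sets tested together (limma adjusted p 0.054). Both measured fibroblast markers, LUM and DCN, were called higher, with LUM going from 8.57 to 9.33 and DCN from 3.80 to 4.63. The mean of DCN over the 6 arrays, 4.21, was also under 4.43. The summed linear value of the 2 genes was 385 to 400.1 in shGFP arrays and 624 to 705 in shPGC-1alpha arrays. Of 2 leukocyte markers, CD68, which many cell types express, was called higher, with a summed linear value of the list of 2238 to 2341 against 2766 to 2985. Of 4 endothelial markers and 1 collecting duct marker, 0 were called by limma and 0 had an unadjusted p under 0.05. The part of these markers in the results on the MOB genes was not tested.

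MOB1A, which with MOB1B forms the pair that activates LATS and NDR kinases, was lower in every shPGC-1alpha array. Its log2 values were 9.75, 9.74 and 9.69 in shGFP replicates 1, 2 and 3, and 8.93, 8.95 and 8.83 in shPGC-1alpha replicates 1, 2 and 3. The groups did not overlap, and arrays of the same group lay close together. The group means were 9.73 ± 0.03 (SD, n = 3) and 8.90 ± 0.07, a log2 difference of -0.83 (SE 0.07, 95% interval -0.98 to -0.67), which is a level 1.77-fold lower. Over all 14884 genes, 200 had a difference at least this far below 0, MOB1A included.

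MOB1B, the near-identical partner of MOB1A, was also lower, by less. Its log2 values were 7.08, 7.26 and 7.17 in shGFP replicates 1, 2 and 3 and 6.75, 6.69 and 6.87 in the shPGC-1alpha replicates in the same order. The lowest shGFP array, replicate 1, stood above the highest shPGC-1alpha array, replicate 3. The means were 7.17 ± 0.09 and 6.77 ± 0.09 (SD, n = 3 each), a log2 difference of -0.40 (SE 0.08, 95% interval -0.58 to -0.21) or a level 1.32-fold lower. The proteins of the pair are nearly the same, and probes for alike transcripts can pick up each other's RNA. Probe sequences were not examined, so whether this occurred is not known and the separate sizes of these 2 differences are uncertain.

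MOB2, the member that competes with MOB1 for NDR kinases, had the only positive difference of the family. Its log2 values of 5.16, 5.28 and 5.38 in shGFP replicates 1, 2 and 3 overlapped those of 5.37, 5.41 and 5.29 in shPGC-1alpha replicates 1, 2 and 3. The highest shGFP array, replicate 3, lay above shPGC-1alpha replicates 1 and 3. The difference was 0.09 (SE 0.08, 95% interval -0.10 to 0.27), so that a rise of up to 0.27 or a fall of up to 0.10 log2 units lay within its interval. Dropping shGFP replicate 1 gave 0.03 for MOB2, and dropping shGFP replicate 3 gave 0.14.

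**Figure D1:**
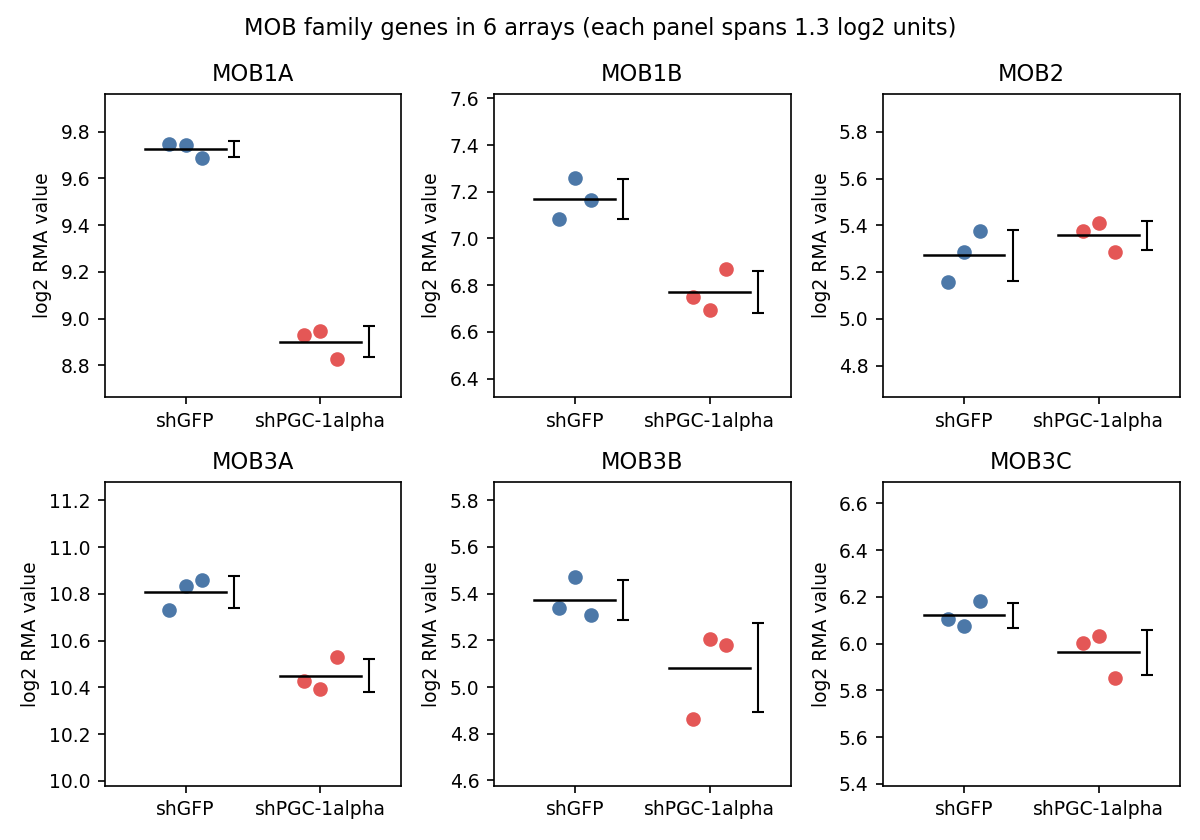
Log2 RMA values (vertical axis, 1.3 log2 units in every panel) of the 6 MOB genes in 3 shGFP (blue) and 3 shPGC-1alpha (red) arrays, with replicates 1 to 3 from left to right, the group mean as a horizontal line and the SD as a bar beside it. The groups overlap for MOB2 and for none of the other genes, and the step is widest for MOB1A, from 9.73 to 8.90.

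The 3 MOB3 genes all had lower means with shPGC-1alpha. MOB3A had log2 values of 10.73, 10.84 and 10.86 in shGFP replicates 1, 2 and 3 and of 10.43, 10.39 and 10.53 in shPGC-1alpha replicates 1, 2 and 3. The groups stood apart, and the difference was -0.36 (SE 0.07, 95% interval -0.53 to -0.19), a level 1.28-fold lower.

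MOB3B had the widest scatter of the family. Its log2 values were 5.34, 5.47 and 5.31 in shGFP replicates 1, 2 and 3 and 4.86, 5.21 and 5.18 in shPGC-1alpha replicates 1, 2 and 3, with an SD of 0.19 in the second group against 0.09 in the first. The MOB3B groups were separated by a small gap, and shPGC-1alpha replicate 1 was far below the others. The difference of MOB3B was -0.29 (SE 0.11, 95% interval -0.54 to -0.04) with all arrays and -0.18 without shPGC-1alpha replicate 1. MOB3C moved least of the 3 genes: its shGFP values ran from 6.08 to 6.18 and its shPGC-1alpha values from 5.85 to 6.03. These MOB3C values did not overlap by a narrow margin, and the interval of the difference, -0.16 (SE 0.07, 95% interval -0.33 to 0.02), held 0. Without shPGC-1alpha replicate 3 the difference of MOB3C was -0.10.

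Over the family, MOB1A, MOB1B and MOB3A were called lower by limma (Benjamini-Hochberg adjusted p under 0.05 over all genes), 3 of 6, and 0 were called higher, nor would any be at an unadjusted p under 0.05. Of all named genes 21.8% were called, 12.2% lower and 9.58% higher. The groups did not overlap, with shPGC-1alpha lower, for 5 of 6 members, against 21.5% of all genes, and with shPGC-1alpha higher for 0 members, against 17.2% (38.7% of all genes in either direction). The median difference was -0.32 over the 6 members and -0.02 over all genes. As the genes were picked with these differences known, nothing is read from these counts. With all 53617 probe sets tested together the count of members called lower was 1. MOB1A kept its call there, and MOB1B and MOB3A lost theirs.

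**Figure D2:**
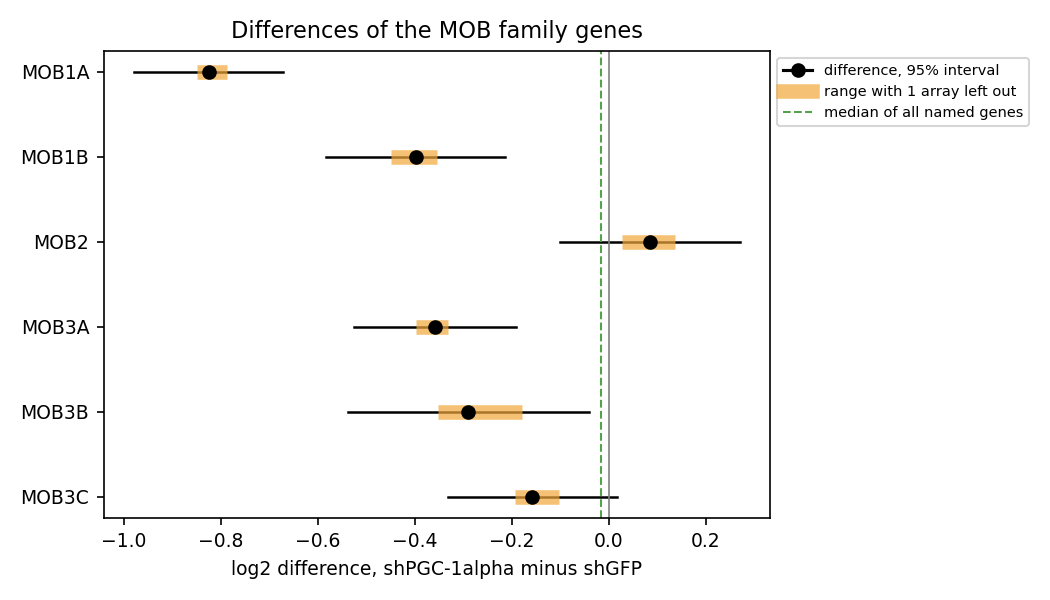
Log2 difference, shPGC-1alpha minus shGFP (horizontal axis), of each MOB gene, with its 95% interval as a black line, the range of values with 1 array left out as an orange bar and the median of all named genes, -0.02, as a dashed green line. MOB1A lies at -0.83, away from the other 5 genes, and the intervals of MOB2 and MOB3C cross 0.

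The gap between MOB1A and MOB1B was smaller in every shPGC-1alpha array. Their log2 difference within an array was 2.66, 2.49 and 2.52 in shGFP replicates 1, 2 and 3 and 2.18, 2.25 and 1.95 in shPGC-1alpha replicates 1, 2 and 3. The mean of this gap shifted by -0.43, and no shPGC-1alpha array reached the shGFP range. The gap between MOB1A and MOB2, which share the NDR kinases as partners, was 4.45 ± 0.14 (SD, n = 3) in shGFP arrays and 3.54 ± 0.01 in shPGC-1alpha arrays, a shift of -0.91. That between MOB1B and MOB2 went from 1.90 ± 0.10 to 1.41 ± 0.15, a shift of -0.48. Both pairs shifted without overlap of the groups. Among MOB3 genes the gaps of MOB3A to MOB3B and to MOB3C shifted by -0.07 and -0.20, and for both pairs the groups overlapped. A gap mixes the probe sets' own brightness and shows at most unequal change of signal, not which transcript is more abundant. Each shift is the difference between 2 members' differences given above, so it is no separate evidence. MOB1A and MOB2 have the lowest and the highest difference, so their shift had to be the widest. Gaps between other genes were not computed, so no share of pairs without overlap stands beside these. The uncertainty about the separate sizes for MOB1A and MOB1B applies to their gap too.

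**Figure D3:**
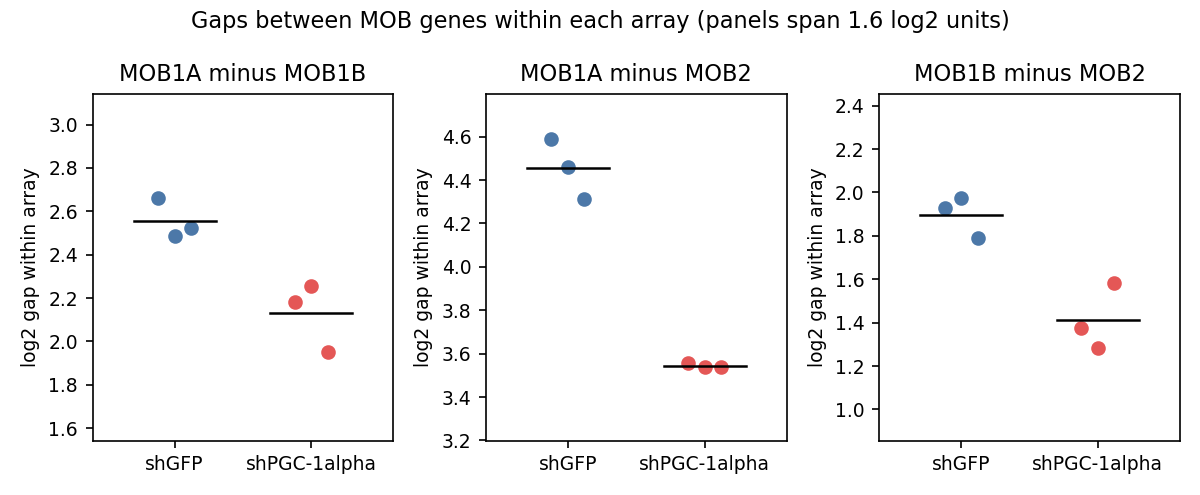
Gap between the log2 values of 2 MOB genes within the same array (vertical axis, 1.6 log2 units per panel) for MOB1A minus MOB1B, MOB1A minus MOB2 and MOB1B minus MOB2, in 3 shGFP (blue) and 3 shPGC-1alpha (red) arrays, with group means as lines. In all 3 panels every shPGC-1alpha array lies below every shGFP array, and the MOB1A minus MOB2 panel has the widest shift, -0.91.

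Over the 6 arrays, MOB1B and MOB3A had the most alike profiles within the family. Likeness was the root mean square difference between 2 genes' log2 values after each gene's own mean was subtracted, and it was 0.041 for this pair. MOB1A differed from MOB1B by 0.24 and from MOB2 by 0.46, the least alike pair. Among 11395 protein-coding genes, the closest to MOB1A were NUCKS1, a chromatin-associated nuclear protein, at 0.021, the serine hydroxymethyltransferase SHMT1, at 0.028, and the aminopeptidase LAP3, at 0.032. Their log2 differences were -0.83, -0.81 and -0.79. The closest to MOB2 were SPOP, a substrate adaptor of a ubiquitin ligase, at 0.015, the glutathione transferase GSTT2B, at 0.024, and the metalloproteinase MMP17, at 0.025. With 6 arrays in 2 groups this likeness mostly states that the group means differ by a like amount.

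The MOB genes lie apart from one another in the genome, on chromosomes 2, 4, 11, 19, 9 and 1 for MOB1A, MOB1B, MOB2, MOB3A, MOB3B and MOB3C. Their nearest measured protein-coding neighbours in the RefSeq order of GRCh38.p14 moved in various directions. On either side of MOB1A, BOLA3, an iron-sulfur cluster protein, had a difference of 0.03 and the dynactin subunit DCTN1 one of -0.17, and neither was called. Next to MOB1B, the deoxycytidine kinase gene DCK fell by 0.50 (limma adjusted p 0.0027; shGFP mean 7.97, shPGC-1alpha mean 7.47), and GRSF1, which binds mitochondrial RNA, was at -0.06. MOB3A and MOB3C each neighbour a kinase gene of the MNK pair, which phosphorylates the translation factor eIF4E. MKNK2, beside MOB3A, fell by 0.39 (limma adjusted p 0.0070), and MKNK1, beside MOB3C, was at 0.04 and was not called. The phosphatase gene DUSP8, beside MOB2, rose by 0.42 (limma adjusted p 0.015, 0.056 without shGFP replicate 3 and 0.063 with all probe sets tested together), and C9orf72, beside MOB3B, rose by 0.91 (limma adjusted p 0.0028). On the remaining sides, BRSK2 at -0.04, IZUMO4 at 0.01, EQTN at -0.01 and ATPAF1 at -0.20 were not called. IFNK lies inside the span of MOB3B and was not named on the array table, so overlap of its transcripts with MOB3B was not examined.

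RefSeq promoter windows of GRCh38.p14 were found for all 6 genes, 9 windows of 250 bases before a transcription start. The outermost windows of the 3 members called lower, and that of MOB2 for contrast, are shown to let their CpG content be seen, with each CG in capitals. The arrays measured no promoter, so these letters describe the genes and bear on no value above.

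MOB1A, chr2:74178880-74179129, minus strand: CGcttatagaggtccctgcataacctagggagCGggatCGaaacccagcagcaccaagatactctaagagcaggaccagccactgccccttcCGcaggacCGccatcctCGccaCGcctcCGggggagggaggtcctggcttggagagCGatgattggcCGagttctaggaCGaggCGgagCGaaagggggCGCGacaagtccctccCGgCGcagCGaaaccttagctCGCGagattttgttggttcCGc

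MOB1B, chr4:70902119-70902368, plus strand: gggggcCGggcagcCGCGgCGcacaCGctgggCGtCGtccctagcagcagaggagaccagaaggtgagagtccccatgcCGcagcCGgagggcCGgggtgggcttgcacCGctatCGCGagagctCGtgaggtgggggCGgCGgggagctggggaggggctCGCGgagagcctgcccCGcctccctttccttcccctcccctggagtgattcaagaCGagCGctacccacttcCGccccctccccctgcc

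MOB3A, chr19:2096327-2096576, minus strand: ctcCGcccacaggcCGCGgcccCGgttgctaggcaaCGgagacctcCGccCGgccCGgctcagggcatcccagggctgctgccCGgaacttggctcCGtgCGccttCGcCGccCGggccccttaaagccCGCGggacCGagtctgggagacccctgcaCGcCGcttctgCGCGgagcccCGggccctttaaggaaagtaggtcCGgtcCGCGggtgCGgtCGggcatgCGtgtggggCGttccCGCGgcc

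MOB2, chr11:1486780-1487029, minus strand: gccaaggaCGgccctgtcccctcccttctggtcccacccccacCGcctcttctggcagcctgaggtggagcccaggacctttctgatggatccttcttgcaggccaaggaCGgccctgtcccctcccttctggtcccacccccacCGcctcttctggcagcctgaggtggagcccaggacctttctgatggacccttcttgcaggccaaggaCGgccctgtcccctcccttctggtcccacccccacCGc

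The windows of MOB1A, MOB1B and MOB3A hold 21, 22 and 31 CG pairs and that of MOB2 holds 6, where the median of 35116 RefSeq windows is 11. The MOB2 window shown is a tandem repeat, so the same CG pairs recur in it, and the contrast depends on which window is shown. The second start of MOB1A has 26 and that of MOB2 has 14, MOB3B has 12, and the 2 windows of MOB3C have 20 and 2. MOB3C, which was not called, thus comes close to MOB1A on this count. The motifs below were sought on both strands: the ERR half-site AAGGTCA (3.44% of all windows hold it), the NRF1 core CGCATGCG (1.73%), the ETS core CCGGAAG of GABP (8.52%), the TEAD motif GGAATG (11.9%) and the cAMP response element TGACGTCA (1.65%). Of the 9 MOB windows 0 held any of these letters, which says only that the exact letters are not in these windows.

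Genes that act with the MOB proteins were taken from 6 lists, and 65 of their 89 genes were measured. Of these, 14 were called higher and 15 lower, 44.6% in all, beside 21.8% of all genes, with a median difference of 0.02 against -0.02. The calls of 10 higher and 10 lower genes held with each array left out in turn, and 9 did not. When all probe sets of the table were tested together, the counts were 9 higher and 9 lower. Of the 65 genes only FRY and RASSF6 had means below the background guide, so all named genes are an unlike background. With genes below the guide left out, 30.7% of the named genes that remained were called, and 15 genes of the lists were higher and 16 lower. The lists were chosen with earlier results of these data known, so nothing is read from these counts.

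In the core of the pathway, the MST kinase genes were not called and their scaffold was lower. STK4 and STK3, which encode MST1 and MST2, had differences of 0.07 (95% interval -0.11 to 0.25) and 0.10 (95% interval -0.07 to 0.27). SAV1, which ties MST kinases to LATS, fell by 0.34 (SE 0.10, limma adjusted p 0.043), from 7.26 ± 0.04 to 6.92 ± 0.18 (SD, n = 3), with all 3 shPGC-1alpha arrays below the shGFP arrays. SAV1 kept its call when shPGC-1alpha replicate 1 was dropped, lost it when any of the other arrays was dropped and with either rescaling, and its limma adjusted p reached 0.11 with an array dropped and 0.13 with all probe sets of the table tested together. LATS1 and LATS2, the kinases that MOB1 activates, were not analysed here, so 1 of 3 measured core genes was lower and 0 were higher, also 0 at an unadjusted p under 0.05.

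Of 4 genes around the NDR kinases, the other partners of MOB1 and MOB2, 2 were lower and 0 higher in limma, with 0 higher at an unadjusted p under 0.05 too. FRYL, a relative of the NDR scaffold FRY, fell by 0.66 (SE 0.08, limma adjusted p 0.0018), from 10.20, 9.91 and 9.99 in shGFP replicates 1, 2 and 3 to 9.38, 9.37 and 9.37 in shPGC-1alpha replicates 1, 2 and 3. The groups stood well apart, and this call held with any array left out. STK38, which encodes NDR1, fell by 0.27 (SE 0.07, limma adjusted p 0.039), from 9.29, 9.34 and 9.26 to 9.02, 9.13 and 8.94 in the same order, a call kept when shPGC-1alpha replicate 2 was dropped and lost when any of the others was, with a limma adjusted p of up to 0.13. It was also lost with all probe sets tested together (limma adjusted p 0.14), with the replicate number as a block (0.051) and with arrays centred on their median (0.076). STK38L, which encodes NDR2, had a difference of 0.08, and FRY one of -0.02 at a level below the background guide.

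The regulators upstream of MST and LATS went both ways, with 4 of 28 measured genes higher and 5 lower. RASSF4, of a family whose members bind MST kinases, rose by 1.33 (SE 0.07, limma adjusted p 5.1e-05), the widest difference of the 65 genes. FRMD6, a FERM-domain protein of cell junctions, rose by 0.81 (SE 0.08), and WWC1, the scaffold KIBRA, rose by 0.67 (SE 0.08), with limma adjusted p of 0.00067 and 0.0012. The junction protein gene TJP1, which encodes ZO-1, fell by 0.47 (SE 0.06, limma adjusted p 0.0019). The other 5 called genes, named after their values were seen, were RASSF6, the kinase genes MAP4K5 and MAP4K4 and the protocadherin FAT4, at -0.88, -0.43, -0.23 and -0.48, and the kinase gene TAOK3, at 0.28. RASSF6 reached a mean of 3.60 in shPGC-1alpha arrays, below the background guide. MAP4K4 lost its call whichever of the 6 arrays was dropped. FAT4 kept its call only when shGFP replicate 2 was the array dropped, and TAOK3 only when it was shPGC-1alpha replicate 3. NF2, which encodes the tumour suppressor merlin, was at -0.21 with a limma adjusted p of 0.052. It was called lower when dim genes were left out (0.032) and with a trended and robust variance (0.0033), and in no other setting.

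Among the coactivators and their DNA-binding partners, 2 of 10 genes were higher and 3 lower, and both directions occurred within the TEAD family. TEAD4 rose by 0.38 (SE 0.06, limma adjusted p 0.0042), and TEAD2 fell by 0.49 (SE 0.09, limma adjusted p 0.0076). TEAD3, named after its value was seen, was called at -0.25 and kept its call, of the 6 arrays, only when shPGC-1alpha replicate 3 was dropped. TEAD3 also lost it with the replicate number as a block, with arrays centred on their median (limma adjusted p 0.054 in both) and with all probe sets tested together (0.11). TEAD1 was at -0.12 and not called. VGLL4, which competes with YAP for TEAD factors, rose by 0.39 (SE 0.06, limma adjusted p 0.0046). Of the coactivators themselves, WWTR1, which encodes TAZ, fell by 0.32 (SE 0.06, limma adjusted p 0.012), and YAP1 had a difference of 0.08 (95% interval -0.10 to 0.26). With all probe sets tested together the adjusted p of WWTR1 was 0.061.

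Of 12 measured genes of a YAP and TAZ target list, 4 were higher and 1 lower, with a median of 0.14. CCDC80, a secreted matrix protein, rose by 0.69 (SE 0.06, limma adjusted p 0.00037), FJX1 by 0.54 (SE 0.07, limma adjusted p 0.0024) and CRIM1, a transmembrane protein that binds growth factors, by 0.32 (SE 0.07, limma adjusted p 0.012). MYOF, which encodes the membrane repair protein myoferlin, fell by 0.46 (SE 0.06, limma adjusted p 0.0018). ANKRD1, named after its value was seen, was at 0.33, a call that was kept when replicate 3 of either group was dropped and lost otherwise. CCN2, the classical target, was at 0.26 with a limma adjusted p of 0.055 and was not called. It has a second named probe set, and with the more variable of the pair its value was -0.13 (limma adjusted p 0.75), so its direction depends on the probe set. With the brighter one it was called higher without shGFP replicate 3 (0.039) and with dim genes left out (0.034). The same held with median centring (0.026) and a trended and robust variance (0.0046), and in no other setting. AXL was at 0.02 and AMOTL2 at -0.03, and neither was called. CRIM1 and ANKRD1 had an adjusted p of 0.061 and 0.072 with all probe sets tested together, which left 2 genes higher.

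STRIPAK is a phosphatase complex that holds MST kinases inactive and contains MOB4, a further MOB protein that was not analysed here. Of its 9 measured genes, 4 were higher and 3 lower. STK24 and STK26, kinases related to MST1 and MST2, fell by 0.72 (SE 0.07) and 0.53 (SE 0.06), with limma adjusted p of 0.00055 and 0.0013. CTTNBP2, which binds cortactin, rose by 0.92 (SE 0.13, limma adjusted p 0.0025), and SLMAP, the adaptor that brings MST kinases to the complex, rose by 0.45 (SE 0.08, limma adjusted p 0.0076). The other 3 called genes, named after their values were seen, were CTTNBP2NL, at -0.38, PDCD10, at 0.36, and FGFR1OP2, at 0.31. PDCD10 lost its call when shGFP replicate 1, shGFP replicate 3, shPGC-1alpha replicate 2 or shPGC-1alpha replicate 3 was dropped. FGFR1OP2 lost it when shGFP replicate 1, shGFP replicate 2 or shPGC-1alpha replicate 3 was dropped, and without shGFP replicate 1 or shPGC-1alpha replicate 3 the count of higher genes was 2.

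**Figure D4:**
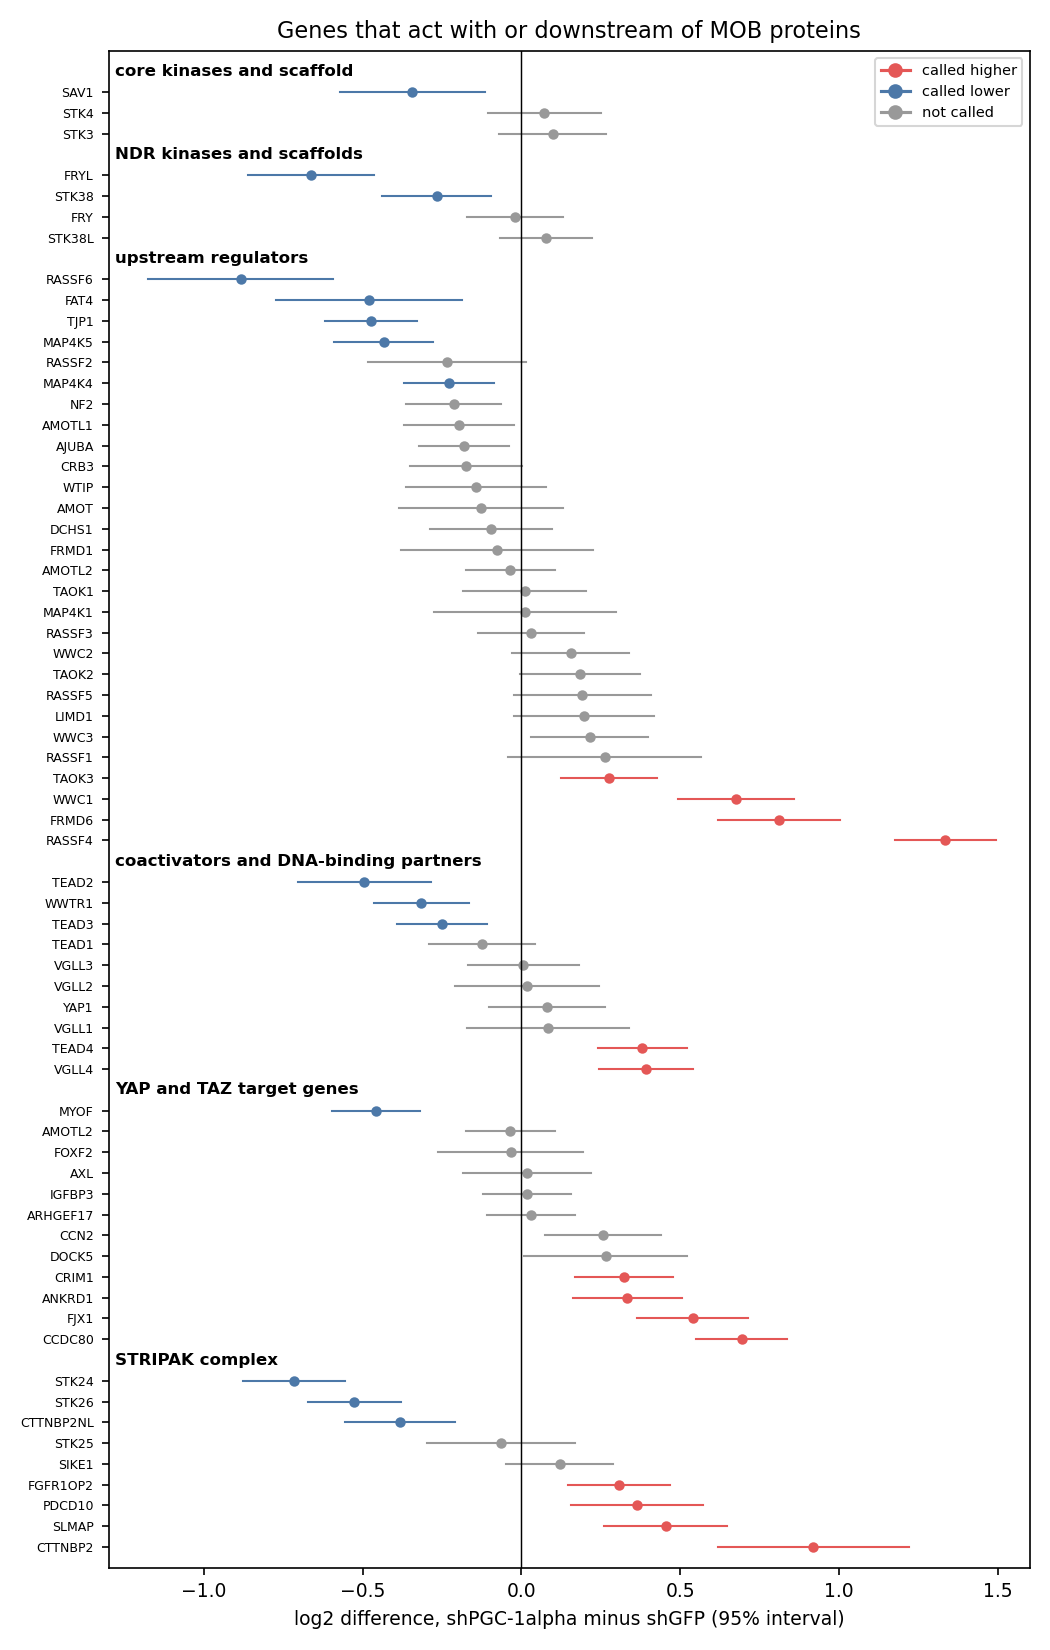
Log2 difference, shPGC-1alpha minus shGFP (horizontal axis), with its 95% interval, of the measured genes of the 6 lists, sorted within each list; red and blue mark genes called higher and lower by limma and grey those not called. Red and blue genes occur together among the upstream regulators, the coactivators and their partners, the targets and STRIPAK, from RASSF6 at -0.88 to RASSF4 at 1.33, both upstream regulators.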

How the data were processed

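The authors deposited log2 values for 53617 probe sets on 6 arrays, made with RMA and Affymetrix Expression Console per the submitters' processing notes, versions not given in the sources used here. RMA equalises the arrays' distributions, so a shift of most transcripts would be reduced. No scanner files or scan dates were used. The platform annotation gave 1 gene symbol to 16098 probe sets, several to 0 and none to 37519, which made 14884 genes after the highest-mean probe set was kept for each.

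A linear model of the 2 groups was fitted to the named genes in limma 3.58.1 under R 4.3.3, with lmFit and eBayes, no filter and no block, with Benjamini-Hochberg adjustment over 14884 genes and a threshold of 0.05. With 3 against 3 an exact permutation test cannot go below 0.1. The procedure was tested on simulated data in which 200 of 14884 genes were changed. It called 44.6% of genes changed by 0.5 log2 units, 82.6% at 1 and 100% at 2, and 2.65% of its calls were false. A gene that was not called may therefore have changed by a small amount. Many more than 200 genes were called in the real data, so these shares may not carry over. Genes were named by rule: the 6 members, their neighbours, the closest profiles of MOB1A and MOB2, and in each list up to 4 called genes with the smallest p. The members, lists and rules were chosen with earlier results of these data known.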

Additional observations from a re-analysis of the deposited data

How the results depend on the processing

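The members and lists were chosen with earlier results of these data known, so their counts below only describe how calls depend on the settings. With 1 array left out in turn, 3 MOB genes were called lower and 0 higher every time. The partner genes called numbered 11 to 13 higher and 10 to 12 lower, and all genes 1011 to 1170 higher and 1301 to 1502 lower. Testing all probe sets together left 1 MOB gene lower, 9 partner genes higher and 9 lower, and 767 genes higher and 970 lower over the named genes; more features were then adjusted for and the spread was estimated over all of them, and which of these mattered was not tested. The replicate numbers were not used as pairs, since the correlation of same-numbered arrays' deviations was 0.12, 0.09 and 0.02, and replicates 1 and 2 but not replicate 3 of shGFP were closest to their own number. With the replicate number as a block, 3 MOB genes were lower and 0 higher, 13 partner genes were higher and 12 lower, and 1221 genes were higher and 1552 lower. Centring the arrays on the median of the named genes turned the split of all calls from 44.0% to 56.5% higher, shifting the median gene by 0.05; 3 MOB genes were lower there too. Over 15 alternatives, 0 of 90 values of the MOB genes moved by more than the SD between arrays, and no called member or partner gene changed sign. Most of the 90 values were bound to stay within that SD, and the MOB genes have no second named probe set. Changing the choice of probe set, the features tested, the block or the variance model left their differences as they were. Only dropping an array, rescaling the arrays or weighting them could change a difference. Dropping 1 of 3 arrays cannot shift a group mean by as much as that SD, which was pooled over both groups. Only rescaling or weighting could thus have moved a value past it, so no stability is read from the count of 0. RMA values carry no detection calls, so the lower signals, such as those of MOB2 and MOB3B, have no measured distance from background.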
